A study of Drosophila melanogaster with 6 samples.

Results

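The vacuolar proton pump (V-ATPase) subunit genes of Drosophila melanogaster were taken as the genes whose symbol in the platform annotation starts with Vha. Each gene was read by its brightest probe set that names no other gene, over all arrays. This gave 31 genes of 11982 measured, each read by 1 of 32 single-gene probe sets, as Vha16-1 had a further, dimmer one. The reference gene table holds 33 genes with such a symbol, and Vha68-1 and Vha68-2, both for the catalytic A subunit, have no single-gene probe set and were not analysed here. The A subunit was therefore seen only through Vha68-3.

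The Pof mutant group held 3 arrays and the wild type group 3 arrays, each array from RNA of 200 whole larvae of instar 1 with sexes and tissues mixed. The series' design text calls the mutant arrays biological replicates and the wild type arrays only replicates, so the spread among wild type arrays may be partly technical and p-values measure the spread between these arrays. The series title gives the mutant allele as D119, and no other allele, strain, batch or treatment is named for either group. Pof encodes a protein that binds along chromosome 4. None of the proton pump genes lies there: 12 are on 3R, 8 on 2R, 5 on 3L, 4 on 2L, 2 on X and 0 on chromosome 4.

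The pump is a rotary enzyme of endosomes, lysosomes, synaptic vesicles and the plasma membrane of some epithelia. Its cytoplasmic V1 sector hydrolyses ATP, and this turns a central shaft that drives a ring of proteolipids in the membrane-bound V0 sector past subunit a, which moves protons across the membrane. In flies it energises fluid secretion by the Malpighian tubules, acidifies part of the midgut and loads neurotransmitter into synaptic vesicles. Several subunits are encoded by more than 1 gene, usually a broadly used isoform and others known mostly from testis or from single organs.

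Some features of the arrays bear on what follows. The probe set for Pof gave 8.35, 8.44 and 8.43 (log2 signal) in Pof mutant larvae, against 6.74, 6.83 and 6.82 in wild type larvae, a difference of 1.61 (SE 0.07, limma adjusted p = 9.47e-05). The labels do not say what the mutation does to this transcript or where the probe set lies in it, so every direction below rests on the group labels. Pairs of mutant arrays correlated at r between 0.993 and 0.996 over all probe sets. Wild type replicates 2 and 3 correlated at r = 0.998, but wild type replicate 1 stood apart from both, at r = 0.980 and r = 0.979. Its median over 24 genes of the Twdl cuticle family was 10.67 on the log2 scale, while this was 7.05 to 7.31 on the mutant arrays and 6.95 and 6.98 on the other wild type arrays. Pof mutant replicate 2 stood apart in the signal of the 3' over the 5' end of control transcripts (actin, GAPDH and eIF-4a). Averaged over these controls, this log2 gap was 2.03 there, while the remaining mutant arrays had 1.20 and 1.28 and the wild type arrays 1.37 to 1.48.

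The broadly used subunits gave some of the brightest signals on the arrays, and the isoforms known from testis gave some of the dimmest. Of the 14 genes classed as broadly used, 12 lay above the 95th percentile of all genes on every array, and the other two, Vha100-1 and VhaM9.7-a, had means of 9.80 and 9.69. The 7 testis-type genes had means between 4.35 and 6.30, below the median gene (7.42 to 7.46), and 4 of them lay below the lower quartile (5.67 to 5.81) on every array. Low signals were not confined to them. The 8 genes classed as other isoforms had means between 5.28 and 10.63. Of these, 2 genes, Vha16-2 and Vha16-3, also lay below the lower quartile on every array. Probe sets differ in how well they bind, so these are positions of signals and not amounts of transcript set against each other. Of 21 testis marker genes 17 were below the lower quartile on every array. The 12 larval markers had means between 5.82 and 13.87, and 7 of them lay above the 95th percentile on every array. These 7 included the muscle gene Mlc2, the midgut protease gene Jon65Aiv and the fatty acid synthase gene FASN1. The neuronal gene elav had a mutant mean of 8.97 and a wild type mean of 9.59 (limma adjusted p = 0.549). It gave 9.17, 8.06 and 9.68 on the mutant arrays, against 9.63, 9.57 and 9.58 on the wild type arrays. Its lowest value, like that of the neuronal gene nSyb (7.41), was on Pof mutant replicate 2. The lowest mean was that of the cuticle gene TwdlT, with 4.88 to 5.36 on the mutant arrays and 9.54 on wild type replicate 1.

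**Figure D1:**
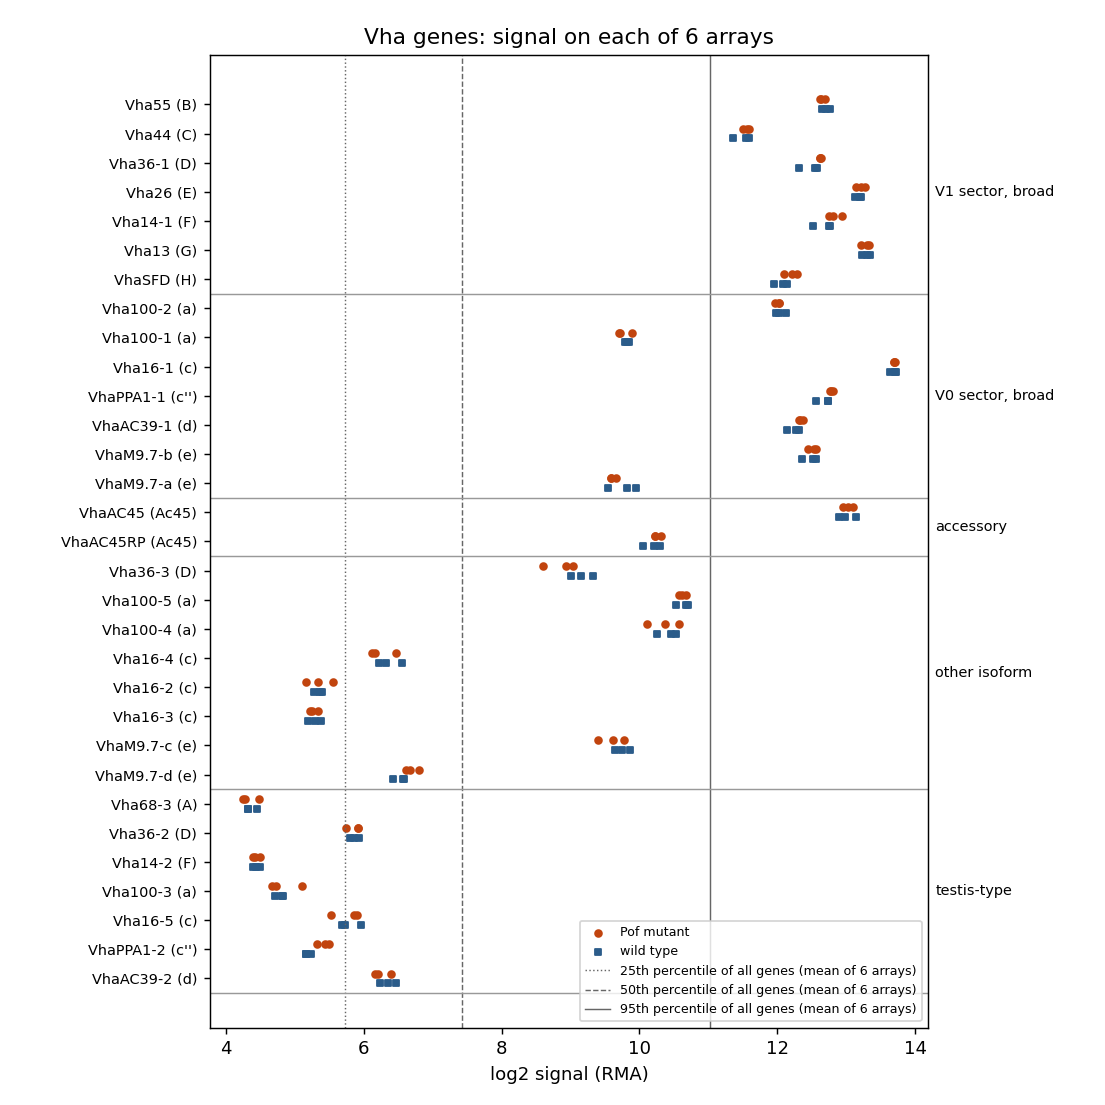
Log2 signal (x axis) of each of the 31 Vha genes (rows, subunit in brackets) on 3 Pof mutant arrays (orange circles, upper) and 3 wild type arrays (blue squares, lower), with lines at the 25th, 50th and 95th percentile of all genes. Of the 14 broad genes 12 sit to the right of the 95th percentile line, the testis-type genes sit left of the median line, and the groups of points lie on or close to each other in every row.

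Between the groups the proton pump genes differed little. By limma 0 of the 31 genes passed an adjusted p of 0.05, where 4.09% of all genes did. At an unadjusted p under 0.05 there was 1 higher gene, VhaPPA1-2, and 0 lower genes, where 10.5% of all genes were higher and 6.31% lower at that level (16.8% in either direction). The differences, Pof mutant minus wild type, ran between -0.30 and 0.24 on the log2 scale with a median of -0.01, beside a median of 0.02 over all genes, and 15 were above 0 and 16 below. The median size of the difference, whatever its sign, was 0.06, against 0.10 over all genes. In whole larvae fewer cells of a type and less RNA per cell cannot be told apart.

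The intervals show how large a change the data allow. The 95% interval of the difference lay within a 1.5-fold change in either direction for 30 of the 31 genes (96.8%), against 84.3% of all genes. Vha36-3 was the exception, with an interval reaching 1.53-fold lower in Pof mutant larvae. For 13 of the 14 broadly used genes the interval lay within 1.3-fold, a bound chosen after the values were seen. These intervals are set for each gene alone and are not adjusted for the number of genes. Array signals can flatten at both ends of the scale, so the intervals bound the change of signal and not that of transcript. The SD between arrays of a group had a median of 0.09 over the 31 genes, 0.07 over the 14 broadly used genes and 0.12 over all genes.

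**Figure D2:**
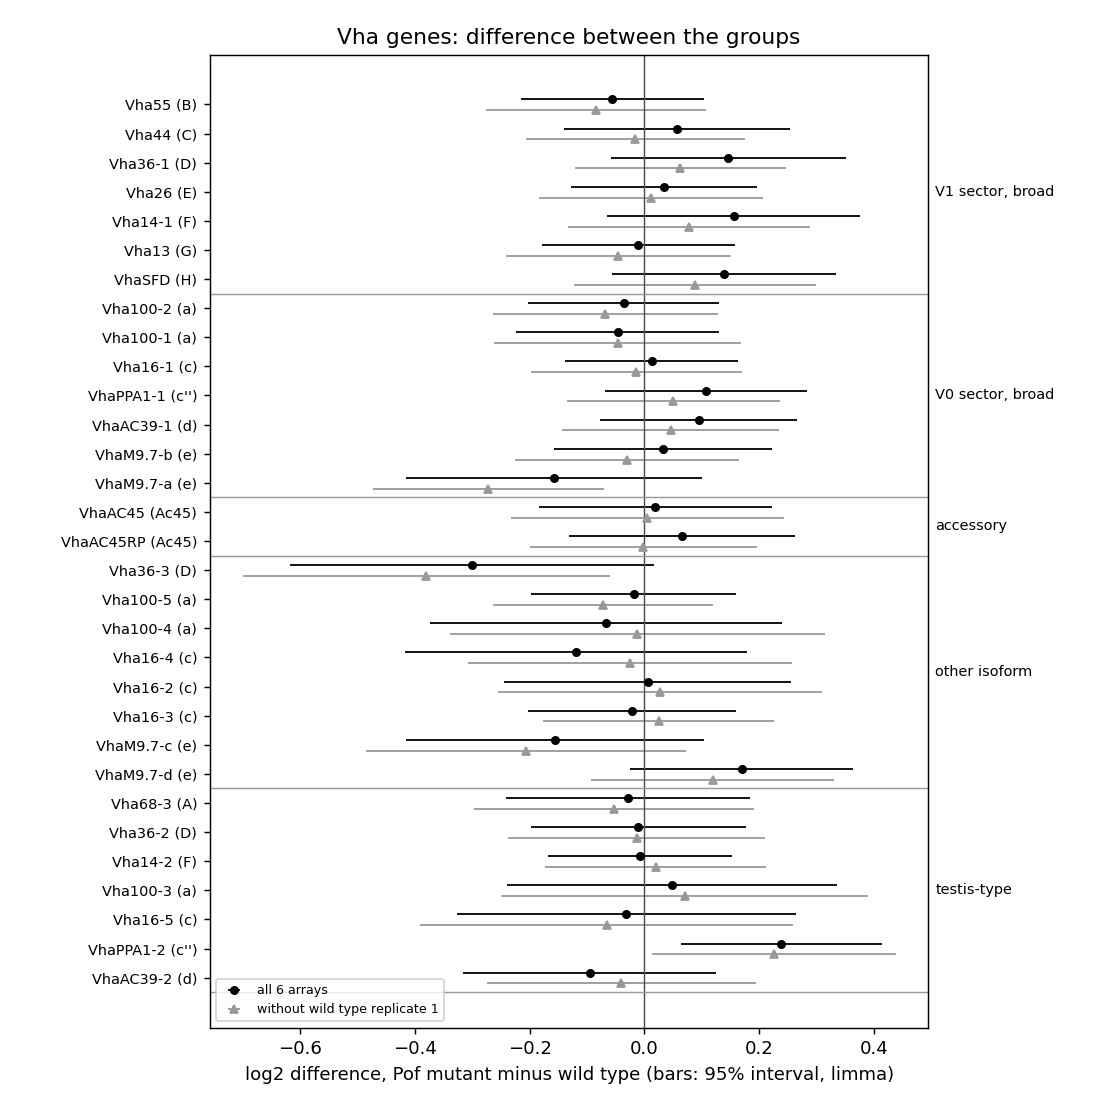
Log2 difference of each Vha gene, Pof mutant minus wild type (x axis), with its 95% interval from limma, for all 6 arrays (black circles) and without wild type replicate 1 (grey triangles). All but 1 of the black intervals include 0, the exception being VhaPPA1-2 at 0.24, and Vha36-3 at -0.30 has the lowest value.

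In the V1 sector the catalytic head was represented by Vha55, which encodes the B subunit. Vha55 measured 12.62, 12.70 and 12.64 in Pof mutant larvae, against 12.65, 12.70 and 12.77 in wild type larvae, and the groups overlapped. Its difference was -0.06 (SE 0.07), with a 95% interval of -0.22 to 0.10. The stalks that hold the head in place are built of subunits E and G. Vha26, for E, measured 13.22, 13.15 and 13.27 in Pof mutant larvae, against 13.13, 13.19 and 13.21 in wild type larvae. Vha13, for G, measured 13.30, 13.33 and 13.21 in Pof mutant larvae, against 13.22, 13.35 and 13.30 in wild type larvae. Both pairs of groups overlapped, and the differences were 0.03 and -0.01.

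Subunits C and H attach where the stalks meet the membrane sector and are known to act when the sectors come apart and rejoin. Vha44, for C, gave 11.59, 11.50 and 11.56 in Pof mutant larvae, against 11.35, 11.59 and 11.55 in wild type larvae, a difference of 0.06 (SE 0.08). VhaSFD, for H, gave 12.10, 12.28 and 12.21 in Pof mutant larvae, against 11.96, 12.14 and 12.08 in wild type larvae, a difference of 0.14 (SE 0.08). The groups overlapped in both genes, and in both the lowest value was that of wild type replicate 1.

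The shaft of the rotor is made of subunits D and F. Vha36-1, for D, gave 12.61, 12.62 and 12.63 in Pof mutant larvae, against 12.31, 12.57 and 12.54 in wild type larvae. The mutant values lay above all wild type values, yet the difference of 0.15 (SE 0.09) did not pass (limma adjusted p = 0.562). Vha14-1, for F, gave 12.76, 12.94 and 12.80 in Pof mutant larvae, against 12.52, 12.76 and 12.75 in wild type larvae, with a difference of 0.16 (SE 0.09, adjusted p = 0.568) and overlapping groups. Without wild type replicate 1 the differences of Vha36-1 and Vha14-1 were 0.06 and 0.08.

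In the V0 sector the proteolipid ring is made of subunits c and c''. Vha16-1, for c, had the brightest signal of the family at 13.69, 13.71 and 13.70 in Pof mutant larvae, against 13.63, 13.72 and 13.71 in wild type larvae, and its difference was 0.01 (95% interval -0.14 to 0.16). It was the only member with another probe set. That dimmer probe set gave 13.07, 12.54 and 13.21 in Pof mutant larvae, against 12.97, 13.12 and 13.10 in wild type larvae, a difference of -0.12 (SE 0.17). Its low value was on Pof mutant replicate 2, the array with the large gap between the ends of the control transcripts, and the part of that gap in the low value was not tested. The c'' gene VhaPPA1-1 gave 12.77, 12.76 and 12.81 in Pof mutant larvae, against 12.56, 12.73 and 12.73 in wild type larvae. Here too the mutant values lay above all wild type values, with a difference of 0.11 (SE 0.07, adjusted p = 0.645), or 0.05 without wild type replicate 1.

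Subunit a carries the proton path beside the ring and is encoded by 5 genes. Vha100-2 gave 12.03, 11.97 and 12.03 in Pof mutant larvae, against 11.98, 12.13 and 12.02 in wild type larvae (difference -0.04). Vha100-1 was counted among the broadly used genes here, though it is known for its role at synapses. It gave 9.71, 9.89 and 9.72 in Pof mutant larvae, against 9.82, 9.85 and 9.80 in wild type larvae (difference -0.05). Groups overlapped in both genes. Vha100-4 and Vha100-5, isoforms with narrower known use, had mutant means of 10.35 and 10.62 and wild type means of 10.42 and 10.64, with differences of -0.07 and -0.02. Vha100-3, of the testis type, averaged 4.84 ± 0.24 in Pof mutant larvae and 4.79 ± 0.06 in wild type larvae (SD, n = 3 each).

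Subunit d joins the ring to the shaft, and e is a small membrane protein of the V0 sector. VhaAC39-1, for d, gave 12.33, 12.32 and 12.37 in Pof mutant larvae, against 12.14, 12.32 and 12.27 in wild type larvae (difference 0.09, SE 0.07). VhaM9.7-b, the brightest of 4 genes for e, gave 12.56, 12.45 and 12.53 in Pof mutant larvae, against 12.35, 12.57 and 12.52 in wild type larvae (difference 0.03, SE 0.08). Groups overlapped in both genes, with the lowest value again on wild type replicate 1. VhaM9.7-a, another gene for e, gave 9.59, 9.59 and 9.66 in Pof mutant larvae, against 9.54, 9.95 and 9.82 in wild type larvae. Its difference was -0.16 (SE 0.11, adjusted p = 0.645), and without wild type replicate 1 it was -0.27 (unadjusted p = 0.0143, limma adjusted p = 0.183).

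The accessory subunit Ac45 is needed for assembly and sorting of the pump. VhaAC45 gave 12.95, 13.10 and 13.02 in Pof mutant larvae, against 12.98, 13.14 and 12.90 in wild type larvae, and the related VhaAC45RP averaged 10.26 ± 0.05 in Pof mutant larvae and 10.19 ± 0.13 in wild type larvae (SD, n = 3 each). The differences were 0.02 and 0.07. Among genes with a Vha name only as a synonym, ATP6AP2, for a further accessory subunit, differed by 0.11 (95% interval -0.07 to 0.29) and CG5421 by 0.18 (-0.15 to 0.51). Neither passed limma (adjusted p = 0.653 and 0.693).

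Of the 31 genes 4 had groups that did not overlap (12.9%), where 22.4% of all genes did, and in all 4 the Pof mutant values were the higher ones. Besides Vha36-1 and VhaPPA1-1 these were VhaPPA1-2 and VhaM9.7-d. VhaPPA1-2, the testis-type isoform of c'', gave 5.50, 5.44 and 5.32 in Pof mutant larvae, against 5.16, 5.16 and 5.23 in wild type larvae. Its difference of 0.24 (SE 0.07, 95% interval 0.06 to 0.41) had an unadjusted p = 0.0146 and did not pass after adjustment (limma adjusted p = 0.192). All 6 values lay below the lower quartile of their array. VhaM9.7-d, for subunit e, gave 6.80, 6.67 and 6.62 in Pof mutant larvae, against 6.43, 6.57 and 6.59 in wild type larvae. Its difference was 0.17 (SE 0.08, adjusted p = 0.452), or 0.12 without wild type replicate 1. That array had the lowest value for Vha36-1, VhaPPA1-1 and VhaM9.7-d.

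The lowest difference was that of Vha36-3, a further gene for the shaft subunit D. It gave 9.04, 8.60 and 8.93 in Pof mutant larvae, against 9.00, 9.33 and 9.15 in wild type larvae, a difference of -0.30 (SE 0.13, adjusted p = 0.399) with overlapping groups. The value was -0.38 without wild type replicate 1 (unadjusted p = 0.0257, limma adjusted p = 0.257) and -0.17 without Pof mutant replicate 2 (adjusted p = 0.578). The remaining genes differed by -0.16 to 0.01. They were VhaM9.7-c (-0.16), the proteolipid genes Vha16-4 (-0.12), Vha16-3 (-0.02) and Vha16-2 (0.01), and the testis-type genes VhaAC39-2 (-0.10), Vha16-5 (-0.03), Vha68-3 (-0.03), Vha36-2 (-0.01) and Vha14-2 (-0.01).

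Isoforms of a subunit were also compared within each array, by taking the brightest gene of a subunit minus each of its other genes. This gave 17 pairs, and the change of this difference between the groups was tested by a two-sided exact permutation test, whose smallest possible p with 3 against 3 arrays is 0.1. For subunit D, Vha36-1 minus Vha36-3 was 3.57, 4.02 and 3.70 in Pof mutant larvae, against 3.31, 3.25 and 3.39 in wild type larvae. The mutant values were all higher, with a change of 0.45 (exact p = 0.1, adjusted over the 17 pairs p = 0.567), or 0.44 without wild type replicate 1. The highest value, 4.02, was on Pof mutant replicate 2, the array with the large gap between the ends of the control transcripts. The change without that array was not computed. For subunit e, VhaM9.7-b minus VhaM9.7-a changed by 0.19 and VhaM9.7-b minus VhaM9.7-d by -0.14, again with groups that did not overlap (exact p = 0.1 each, adjusted p = 0.567). The other pairs overlapped between the groups, and their changes were between -0.13 and 0.19. With this test none of the pairs could go below 0.1, and no other test was run on them.

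Some isoform genes are neighbours on the chromosome. Between VhaPPA1-2 and VhaPPA1-1 on 3R lies 1 gene of the reference table, and Vha100-4 and Vha100-2 on 3R are adjacent. The proteolipid genes Vha16-3 and Vha16-2, 1 gene apart on 3L, had mutant means of 5.27 and 5.35 and wild type means of 5.29 and 5.35. Vha68-3 lies between Vha68-2 and Vha68-1 on 2L and averaged 4.34 ± 0.13 in Pof mutant larvae and 4.37 ± 0.08 in wild type larvae (SD, n = 3 each).

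Most of the broadly used subunits had their lowest value on wild type replicate 1. For 10 of these 14 genes it had the lowest of the 6 values, and for 14 of 14 it lay below the mean of wild type replicates 2 and 3, where it did so for 59.4% of all genes and 71.5% of those with a mean above 11. Relative to that mean, the median log2 deviation of the 14 genes was -0.01, 0.00 and -0.01 on the 3 Pof mutant arrays and -0.15 on wild type replicate 1. Per gene this gap of wild type replicate 1 was between -0.34 (VhaM9.7-a) and -0.0003 (Vha100-1). Over all genes wild type replicate 1 was lowest for 28.2%, with a median gap of -0.04, and over the 606 genes with a mean above 11, a limit also chosen after seeing values, it was lowest for 35.0%, with a median gap of -0.08. Of the testis-type genes 0 of 7 were lowest on that array, and their median gap was -0.01. A low wild type replicate 1 was not particular to the pump. In the lists of related genes described below, the median gap was -0.32 for pump assembly and regulation (3 genes). It was -0.21 for the growth-control kinase complex TORC1 (15 genes) and -0.13 for transport (17 genes). The acid midgut list had -0.07, the lysosomal list -0.01, testis markers 0.03 and larval tissue markers 0.07. The low pump values stood on the array with the high Twdl signal, and the part of one in the other was not tested.

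Of the 14 broadly used genes 9 were above 0 with all arrays, with a median difference of 0.03, and 6 were above 0 without it, with a median of -0.01. Over the 31 genes 0 passed limma without it either, where 4.47% of all genes passed, and 3 were at an unadjusted p under 0.05, where 17.2% of all genes were.

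**Figure D3:**
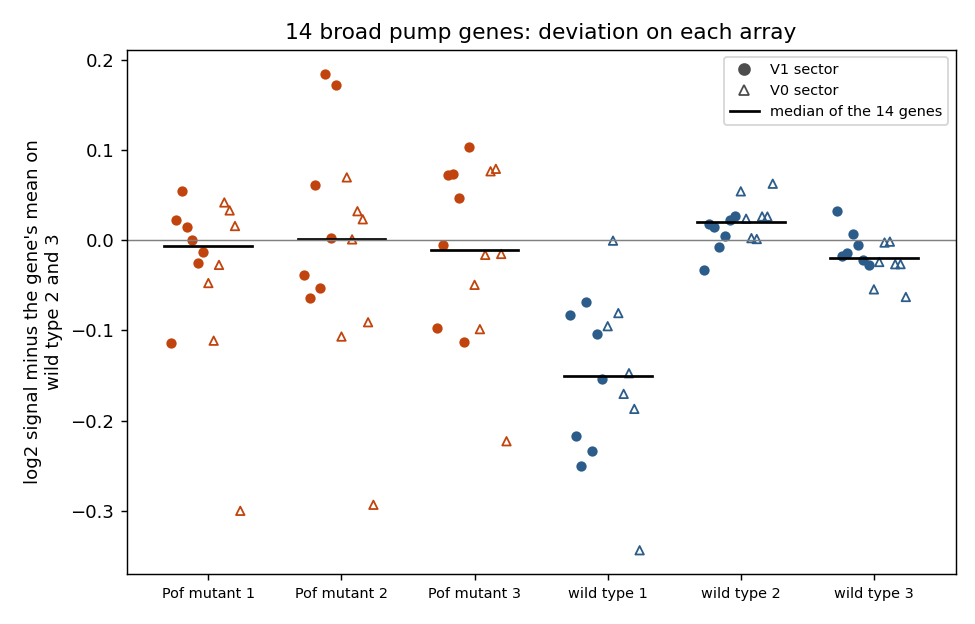
Log2 signal of the 14 broadly used Vha genes on each array (x axis) minus the mean of that gene on wild type replicates 2 and 3 (y axis), with V1 genes as filled circles, V0 genes as open triangles and the median as a bar. The median lies between -0.01 and 0.00 on the 3 Pof mutant arrays and at -0.15 on wild type replicate 1.

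Genes that work with the pump were examined as lists. In its assembly and regulation, Rbcn-3B, a rabconnectin known in flies to be needed for activity of the pump, and mtd differed by 0.14 each (adjusted p = 0.674 and 0.665). Without wild type replicate 1 the differences were 0.06 for Rbcn-3B and 0.04 for mtd. Mitf, a transcription factor known in flies to activate genes of the pump, lies on chromosome 4. It gave 7.13, 7.31 and 7.54 in Pof mutant larvae, against 7.11, 7.60 and 7.77 in wild type larvae, a difference of -0.16 (SE 0.18, 95% interval -0.60 to 0.27). Its groups overlapped and wild type replicate 1 was the lowest array. Without that array its difference was -0.36 (95% interval -0.66 to -0.05, unadjusted p = 0.0274, limma adjusted p = 0.265).

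The lysosome, where the pump provides the acid interior, had members that did change. Of 19 measured genes of the lysosomal lumen and membrane 4 rose in Pof mutant larvae (21.1%) and 0 fell, where 2.65% of all genes rose and 1.44% fell. The list was chosen with earlier results of these data known, so its share describes the listed genes and is not a test of the lysosome. LManI, which encodes a lysosomal alpha-mannosidase, gave 9.18, 9.24 and 9.23 in Pof mutant larvae, against 7.96, 7.87 and 7.74 in wild type larvae. It rose by 1.36 (SE 0.08, limma adjusted p = 3.66e-04), which is 2.57-fold. LManII, a related gene next to it on 2L, gave 10.85, 11.04 and 11.05 in Pof mutant larvae, against 9.80, 9.48 and 9.51 in wild type larvae, and rose by 1.38 (SE 0.11, adjusted p = 1.36e-03). As close copies they may share signal, while LManV differed by -0.04.

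The other rises in the lysosome were smaller. Cln3 and Cln7 are related to human genes of Batten disease and encode membrane proteins of late endosomes and lysosomes. Cln3 gave 9.13, 9.21 and 9.14 in Pof mutant larvae, against 8.57, 8.79 and 8.62 in wild type larvae, and rose by 0.50 (SE 0.08, adjusted p = 0.0223). Cln7 gave 8.42, 8.43 and 8.28 in Pof mutant larvae, against 7.77, 7.98 and 8.01 in wild type larvae, and rose by 0.46 (SE 0.09, adjusted p = 0.0442). The groups did not overlap in these 4 genes. Over the whole list this held for 7 of 19 genes (36.8%, against 22.4% of all genes). Besides these 4 they were CtsL1 (-0.40), CtsF (-0.19) and CtsB (-0.14), all lower in Pof mutant larvae without passing limma. LManI and LManII still passed with each array left out in turn, but the call of Cln3 was lost without wild type replicate 3 or any mutant array (adjusted p 0.0658 to 0.109) and that of Cln7 without any single array (0.0652 to 0.135). The list's median difference was 0.04, beside 0.02 over all genes, and among members chosen after their values were seen the protease gene CtsL1 gave -0.40 (adjusted p = 0.122) and the membrane protein gene Lamp1 -0.05.

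**Figure D4:**
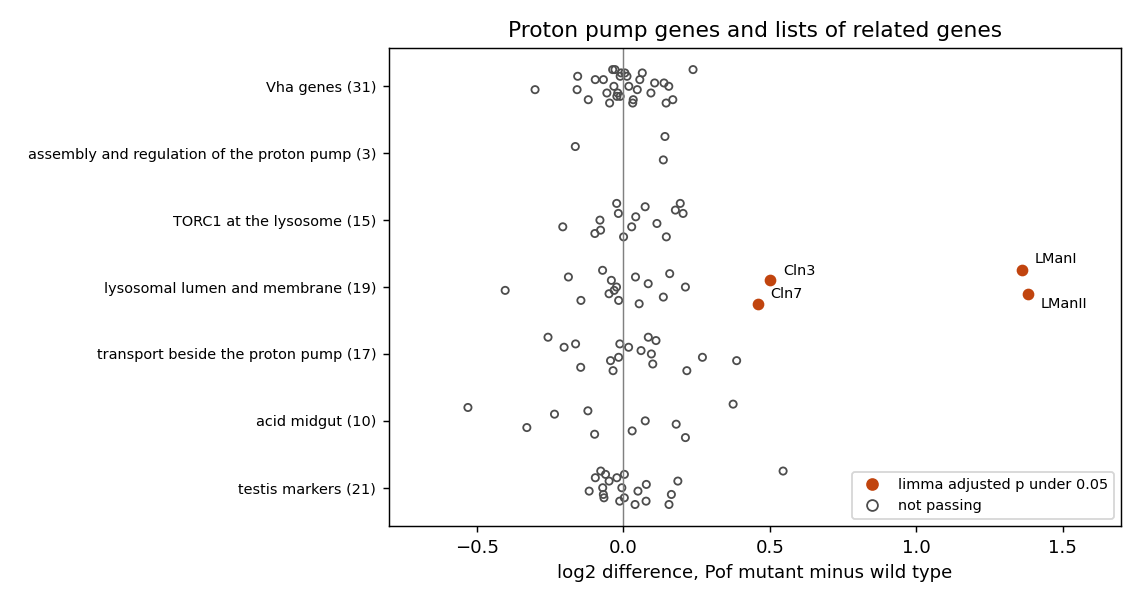
Log2 difference, Pof mutant minus wild type (x axis), of the Vha genes and of the measured genes of 6 related lists (rows, number of genes in brackets), with genes past a limma adjusted p of 0.05 as filled points. The Vha genes lie between -0.30 and 0.24, and the filled points are LManI, LManII, Cln3 and Cln7 of the lysosomal list.

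In the remaining lists limma called 1 gene, a larval tissue marker. The counts at an unadjusted p under 0.05 stand beside 10.5% of all genes with higher and 6.31% with lower values at that level. Of 15 genes of the growth-control kinase complex TORC1 and its lysosomal partners 0 passed limma, and an unadjusted p under 0.05 was reached by 1 with a higher and 1 with a lower value in Pof mutant larvae. These were Lamtor4, of the complex that anchors TORC1 to the lysosome, at 0.19 (adjusted p = 0.310) and Iml1, an inhibitor of TORC1, at -0.21 (adjusted p = 0.345). Of 17 genes for ion and water transport beside the pump 0 passed limma, and an unadjusted p under 0.05 was reached by 3 with higher and 2 with lower values in Pof mutant larvae, 5 of 17 genes beside 16.8% of all genes in either direction. The smallest p belonged to the potassium channel gene Irk1 at -0.26 and the sodium/proton exchanger gene Nhe2 at 0.39. Of 10 genes linked to the acid region of the midgut and metal handling 0 passed limma, and an unadjusted p under 0.05 was reached by 2 with higher and 2 with lower values, 4 of 10 genes beside the same 16.8%. The metallothionein gene MtnC, below the lower quartile on every array, differed by 0.38 and the ferritin gene Fer2LCH by -0.33. The largest difference of this list was that of MtnB at -0.53 (SE 0.48, adjusted p = 0.735), with overlapping groups. Of 21 testis markers 0 passed limma and 1 was higher at an unadjusted p under 0.05, the meiotic phosphatase gene twe at 0.55 (adjusted p = 0.193), followed by the RNA-binding gene bol at 0.16 (adjusted p = 0.408). With Pof mutant replicate 1 left out, twe passed at 0.74 (adjusted p = 0.0418). The signal of twe lay below the lower quartile of all genes on every array. Of 12 larval tissue markers 1 rose and 0 fell, where 2.65% of all genes rose and 1.44% fell, and an unadjusted p under 0.05 was reached by 2 with higher and 1 with lower values. The midgut trypsin gene betaTry rose by 1.03 (adjusted p = 0.0214), a call lost without wild type replicates 2 or 3 or Pof mutant replicate 2 (adjusted p 0.0739 to 0.101). Of the other midgut genes of the list, alphaTry gave -0.29 (adjusted p = 0.435, groups that did not overlap) and Jon65Aiv gave 0.00. The fat body lipoprotein gene apolpp, which lies on chromosome 4, gave 0.40 (adjusted p = 0.0714). It passed once wild type replicate 1 was left out (adjusted p = 0.0320). The part of its tissue or of its chromosome in this was not tested. The cuticle gene Cpr67Fa2 gave -0.84 (adjusted p = 0.0644) and passed at -1.02 with wild type replicate 2 left out (adjusted p = 0.0443).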

How the data were processed

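The authors deposited log2 signals for each probe set of 6 Affymetrix arrays, which the submitters' processing notes credit to RMA. The version of RMA is not given in the sources here. RMA normally makes array distributions alike, so a shift of most genes would be removed. Detection calls were not used, and precision is limited by the number of arrays. Of 18952 probe sets, 183 controls were left out. Single-gene names came from the platform annotation (13647 probe sets), updated by gene ID through NCBI genes of assembly Release 6 plus ISO1 MT (13544 matched), used only for names, arms and gene order. Of the 31 proton pump genes, 7 were read by _s or _a probe sets, which can match several transcripts.

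All 18769 probe sets entered 1 fit of both groups (limma 3.58.1 under R 4.3.3, lmFit then eBayes, no covariates), with Benjamini-Hochberg adjustment over all of them. SE is the moderated standard error. The procedure was tested on simulated data, with noise drawn independently for each probe set and array. No simulated array stood apart, so the test does not cover arrays like wild type replicate 1 or Pof mutant replicate 2. All members were named, with the called genes or the 2 smallest p of each list. Members, isoform classes and lists were chosen with earlier results of these data known, and classes and lists rest on general knowledge; 5 genes were dropped from the lists after the files were opened. Percentiles are over the brightest probe set of each gene. Alternatives were dim-probe filters, 2 further normalizations, other variance models, weights per array, a block on replicate number, leaving out each array, other probe set choices and an adjusted p under 0.10. Adding synonym genes, and omitting both wild type replicate 1 and replicate 2 of the Pof mutant, were chosen after seeing the data.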

Additional observations from a re-analysis of the deposited data

How the results depend on the processing

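Under all 20 alternatives, which include leaving out each array in turn, 0 of the Vha genes were called higher and 0 lower. The lowest adjusted p of any Vha gene was 0.143, for Vha36-3 with array weights. The median difference of the Vha genes lay between -0.03 and 0.02 over the alternatives, and between -0.02 and 0.02 with single arrays left out. Of the 31 genes 18 had differences of both signs over the alternatives and 13 kept their sign. The filters on dim probe sets kept 23 and 20 of the members, and 24 were left without _s, _x and _a probe sets. The reference table added no member under its own symbol, so the alternative that used its symbols repeated the main fit and could not differ. Over the 96 measured genes of the lists 5 were called higher and 0 lower by limma (against 2.65% and 1.44% of all genes), while an unadjusted p under 0.05 was reached by 13 with higher and 7 with lower values in Pof mutant larvae (against 10.5% and 6.31% of all genes). The number called higher was 2 to 5 with single arrays left out, 7 with array weights, 6 each with eBayes trend and robust, at an adjusted p under 0.10 and with wild type replicate 1 and Pof mutant replicate 2 both left out, and 1, LManI, in a linear model without eBayes, where LManII had an adjusted p = 0.0616. The number called lower was 0 to 1 with single arrays left out, 2 with array weights, and 1 each with the upper 40% of probe sets, with eBayes trend and robust, at an adjusted p under 0.10, and with wild type replicate 1 and replicate 2 of the Pof mutant both left out. Among those called were Irk1 with array weights, and MtnB and Nhe2 with wild type replicate 1 and Pof mutant replicate 2 both left out. The cause of these changes was not tested. Same-numbered arrays deviated together at r = 0.177, 0.132 and 0.0251 for replicates 1, 2 and 3. Differently numbered arrays were not compared, so these values cannot tell if the numbers pair the samples. The main fit did not pair them. With the replicate block 0 Vha genes were called, 4 list genes were called higher and 0 lower, and Cln7 had an adjusted p = 0.0786.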
